A study of Mus musculus with 9 samples.

Results

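Chemokines are small secreted proteins that guide leukocytes along gradients by binding receptors of the G protein-coupled class, named CCR or CXCR after the chemokine class they recognise. Monocytes both follow such gradients and make chemokines of their own, and many of these genes are switched on within minutes to hours of an inflammatory signal through NF-kB, interferon or immediate early factors. In mice many inflammatory CC ligands lie in clusters on chromosome 11 and many inflammatory CXC ligands on chromosome 5.

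The genes described here are 9 chemokine ligands made by monocytes and other leukocytes, chosen by name: Ccl2, Ccl3, Ccl4, Ccl6, Ccl7, Ccl9, Cxcl2, Cxcl10 and Cxcl16. They are 9 of the 55487 gene IDs in each count table. A count was recorded for 8 of the 9, and the same 8 passed the filter on low counts that left 18341 genes to test. Ccl7 had no count in any library.

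The values are RNA-seq counts of untreated splenic monocytes, sorted from mice of strain C57BL/6 at 40000 to 50000 cells per library. The 3 groups of 3 libraries are Ly6Clo monocytes of Cebpa +37-/- mice (KO Ly6Clo), Ly6Clo monocytes of wild-type mice (WT Ly6Clo) and Ly6Chi monocytes of wild-type mice (WT Ly6Chi). Ly6Chi cells are the classical subset that enters inflamed tissue, and Ly6Clo cells the nonclassical subset that patrols vessels. Cebpa +37-/- denotes homozygous loss of the element 37 kb downstream of Cebpa, a regulator of the granulocyte and monocyte lineages. The genotype labels name no restriction of the deletion to a cell type. Ly6Chi cells of the KO are not analysed here, so KO Ly6Clo against WT Ly6Chi differs in genotype and subset at once, and these cannot be told apart. Whether replicates came from separate animals is not stated, and the p-values cover only the variation among these libraries, part of which may be technical.

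Total counts per library ran from 48141590 to 173703361, the deepest being WT Ly6Clo 2 and KO Ly6Clo 2. Cebpa stood at 4.04, 2.89 and 2.74 CPM (counts scaled to library size, here after TMM scaling, as all CPM below unless stated) in KO Ly6Clo, at 18.2, 17.7 and 19.2 CPM in WT Ly6Clo and at 31.5, 51.3 and 51.6 CPM in WT Ly6Chi. The summed level of 8 general monocyte markers was 17211 to 20461 CPM in KO Ly6Clo, 24217 to 27083 CPM in WT Ly6Clo and 44293 to 46891 CPM in WT Ly6Chi, with no marker at 0. This sum is weighted to the most abundant markers, and the 8 did not fall as a set against WT Ly6Chi. Their median log2 fold change was 0.58 in WT Ly6Clo against WT Ly6Chi (2 called higher, 2 lower). In KO Ly6Clo against WT Ly6Chi it was 0.19 (1 called higher, 2 lower). In KO Ly6Clo against WT Ly6Clo it was -0.27, beside 0.03 for all genes, with 0 called, and the sums did not overlap. The 5 Ly6Chi markers summed to 123 to 206 CPM in KO Ly6Clo, 134 to 147 CPM in WT Ly6Clo and 3976 to 6083 CPM in WT Ly6Chi. The 5 Ly6Clo markers summed to 4753, 10361 and 9512 CPM in KO Ly6Clo, to 6892, 15972 and 10197 CPM in WT Ly6Clo and to 1129, 4676 and 5037 CPM in WT Ly6Chi. This sum was lowest in library 1 of each group, and KO Ly6Clo 1 lay below WT Ly6Chi 3. At equal library number, each Ly6Clo sum lay above that of WT Ly6Chi. Of the 5, Spn and Treml4 were called higher by edgeR in both comparisons with WT Ly6Chi, and 0 were called lower. WT Ly6Chi 3 stood apart by sex-linked genes, with 30.0 CPM of Xist against at most 0.0417 CPM in every other library. It had 0 CPM of Ddx3y, a Y-linked gene, against 69.4 to 142 CPM in the others. WT Ly6Chi 3 thus read as female and the others as male. Sex differed within WT Ly6Chi, and libraries numbered 3 did not all come from the same animals. In sorted bulk cells, fewer cells of a type and less RNA per cell cannot be told apart.

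Of the 9 genes, 7 lie on chromosome 11 (GRCm38). Ccl2 (82035571 to 82037453) and Ccl7 (82045712 to 82047525) are neighbours 8.259 kb apart. Ccl9 (83572919 to 83578636) and Ccl6 (83587882 to 83593087) are 9.246 kb apart with no protein-coding gene between them, and Ccl3 (83647844 to 83649355) and Ccl4 (83662584 to 83664683) 13.229 kb apart on opposite strands. Cxcl16 (70453983 to 70459984) lies apart from these. Cxcl2 (90903871 to 90905938) and Cxcl10 (92346638 to 92348889) lie on chromosome 5.

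Promoters of 4 members are shown, since Ccl6 and Ccl9 carry most of the chemokine RNA and are neighbours that differed in response, and Cxcl2 and Cxcl10 stand for the patterns that followed library number and subset. They are RefSeq sequences of GRCm38.p6 from 250 bases before to 50 after the start, available for 5 members in all. Capitals mark matches to motifs searched on both strands: the NF-kB consensus, AP-1 (TGANTCA), an interferon response core (GAAANNGAA), C/EBP (TTGCNNAA), an ETS site (GAGGAAGT) and, on the forward strand, the TATA box (TATAAA).
Ccl9, chr11:83578587-83578886, minus strand: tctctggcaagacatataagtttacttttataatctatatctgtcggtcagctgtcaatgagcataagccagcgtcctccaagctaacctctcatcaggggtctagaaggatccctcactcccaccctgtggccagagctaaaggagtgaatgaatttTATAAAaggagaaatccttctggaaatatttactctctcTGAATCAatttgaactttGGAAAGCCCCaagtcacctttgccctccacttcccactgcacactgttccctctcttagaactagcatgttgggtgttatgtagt
Ccl6, chr11:83593038-83593337, minus strand: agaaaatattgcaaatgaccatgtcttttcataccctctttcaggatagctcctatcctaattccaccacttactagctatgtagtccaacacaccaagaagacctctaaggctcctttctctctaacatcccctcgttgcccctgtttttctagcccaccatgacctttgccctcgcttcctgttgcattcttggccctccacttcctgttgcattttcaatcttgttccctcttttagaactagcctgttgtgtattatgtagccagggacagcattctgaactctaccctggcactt
Cxcl2, chr5:90903649-90903948, plus strand: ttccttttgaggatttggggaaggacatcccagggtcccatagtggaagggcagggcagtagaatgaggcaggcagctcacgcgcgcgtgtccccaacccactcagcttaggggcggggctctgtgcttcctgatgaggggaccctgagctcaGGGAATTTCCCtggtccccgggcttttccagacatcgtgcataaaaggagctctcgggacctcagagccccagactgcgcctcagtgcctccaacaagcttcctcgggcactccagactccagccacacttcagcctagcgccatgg
Cxcl10, chr5:92348840-92349139, minus strand: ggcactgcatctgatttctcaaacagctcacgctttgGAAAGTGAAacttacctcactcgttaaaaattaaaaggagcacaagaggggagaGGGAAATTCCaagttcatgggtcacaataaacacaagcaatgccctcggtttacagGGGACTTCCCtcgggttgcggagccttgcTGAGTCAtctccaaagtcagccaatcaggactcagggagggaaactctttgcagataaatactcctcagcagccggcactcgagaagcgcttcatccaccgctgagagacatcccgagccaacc
Positions below count from the start. Cxcl10 held matches to the NF-kB consensus at -159 to -150 and -103 to -94, to the interferon core at -213 to -205 and to AP-1 at -74 to -68. Cxcl2 held an NF-kB match at -97 to -88 that reads as a match on the other strand as well, shifted by 1 base. Ccl9 held NF-kB at -35 to -26, AP-1 at -53 to -47 and a TATA box at -92 to -87, and Ccl6 held none of these motifs. Ccl3, which followed library number as Cxcl2 did, is not shown. Its window held an interferon core match at -39 to -31 on the other strand and no NF-kB match. No C/EBP or ETS letters as spelled here were found in any of the 5 windows, which says only that they are not in these 300 bases. Of 32851 mouse promoters of the same length, 4.51% held the NF-kB consensus, 8.56% the interferon core, 7.81% AP-1, 10.8% C/EBP, 3.20% the ETS site and 8.32% TATAAA, so a match is a description and not a site. Ccl6 and Ccl9 share a stretch of 40 bases with 36 identical (90%), at -25 to 15 in Ccl6 and 10 to 49 in Ccl9. The annotated start of Ccl6 thus lies within the stretch and that of Ccl9 before it. None of the other 9 pairs among the 5 promoters shared an ungapped stretch scoring above 12 (matches minus mismatches), against 32 for this pair.

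Ccl6 was by far the most abundant of the 9 in every library. Between genes, levels are compared in TPM, the deposited measure that divides counts by gene length. Ccl6 reached 2678, 969 and 1244 TPM in KO Ly6Clo, 1606, 1270 and 1432 TPM in WT Ly6Clo and 2731, 2181 and 2258 TPM in WT Ly6Chi. Its share of the summed TPM of the 9 genes ran from 55.1% in KO Ly6Clo 3 to 92.5% in KO Ly6Clo 1. The sum itself was 2896, 1638 and 2258 TPM in KO Ly6Clo, 1821, 1906 and 1989 TPM in WT Ly6Clo and 3602, 2979 and 3063 TPM in WT Ly6Chi, so every WT Ly6Chi library held more chemokine RNA than any Ly6Clo library.

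**Figure D1:**
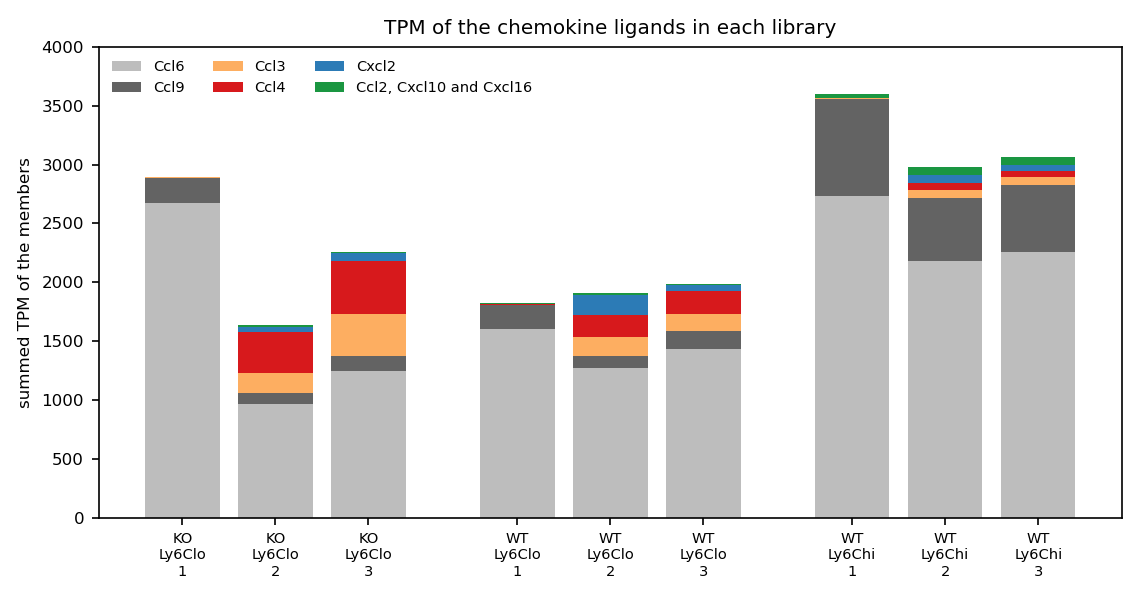
Stacked bars give the TPM of the chemokine ligands in each of the 9 libraries, grouped as KO Ly6Clo, WT Ly6Clo and WT Ly6Chi. Ccl6 fills 55.1% to 92.5% of each bar, Ccl9 is the wide second layer in WT Ly6Chi, and Ccl3, Ccl4 and Cxcl2 are almost missing from the library numbered 1 of each group.

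The order below Ccl6 differed with the subset and with library number. Ccl9 came second in each library numbered 1, and Ccl4 did in libraries 2 and 3 of both Ly6Clo groups. In WT Ly6Chi, Ccl9 came next at 643 ± 159 TPM (SD, n = 3), clear of Ccl3 (49.8 ± 36.6), Cxcl2 (40.9 ± 35.2), Ccl4 (35.1 ± 28.2), Ccl2 (26.1 ± 10.0) and Cxcl10 (23.1 ± 6.93), which did not differ from each other beyond their spread, and Cxcl16 was at 6.83 ± 3.29 TPM. In KO Ly6Clo, Ccl4 (269 ± 239), Ccl3 (175 ± 173) and Ccl9 (145 ± 60.3 TPM) overlapped, followed by Cxcl2 at 36.6 ± 33.6 TPM. In WT Ly6Clo, Ccl9 (150 ± 48.7), Ccl4 (128 ± 106), Ccl3 (105 ± 86.1) and Cxcl2 (76.6 ± 90.8 TPM) overlapped in the same way. Cxcl16, Cxcl10 and Ccl2 each averaged under 6 TPM in both Ly6Clo groups. The SDs of Ccl3, Ccl4 and Cxcl2 are of the order of their means, with libraries 2 and 3 far above library 1 in each group.

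**Figure D2:**
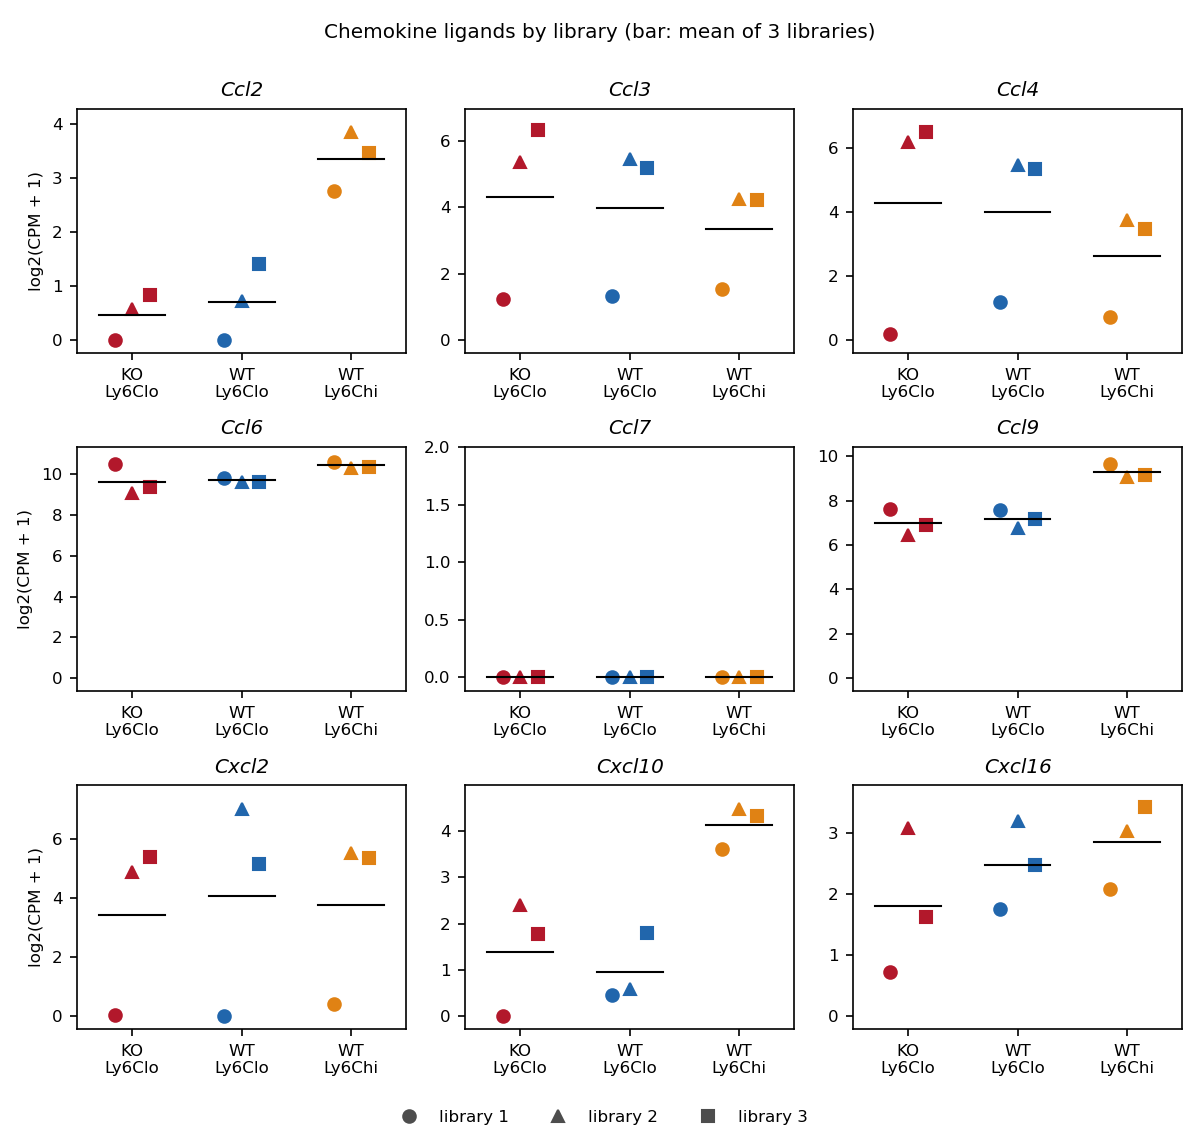
Each panel gives 1 chemokine ligand as log2(CPM + 1), with a point per library (circle, triangle and square for libraries 1, 2 and 3) and a bar at the mean of those log2 values, in KO Ly6Clo, WT Ly6Clo and WT Ly6Chi. Ccl2, Ccl9 and Cxcl10 lie higher in all 3 WT Ly6Chi libraries than in any Ly6Clo library, and the circle is the lowest point of every group for Ccl2, Ccl3, Ccl4, Cxcl2, Cxcl10 and Cxcl16.

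Ccl9 was the member that separated the subsets most firmly. Its product, also called MIP-1 gamma, is a mouse chemokine that acts through CCR1 and has no direct human counterpart. Ccl9 was at 195, 87.7 and 119 CPM in KO Ly6Clo, at 190, 107 and 144 CPM in WT Ly6Clo and at 811, 539 and 571 CPM in WT Ly6Chi. Both Ly6Clo groups lay entirely below WT Ly6Chi and overlapped each other. In WT mice Ccl9 fell 4.35-fold in Ly6Clo against Ly6Chi cells (log2 fold change -2.12, SE 0.34, edgeR adjusted p = 0.0128). In KO Ly6Clo against WT Ly6Chi it fell 4.79-fold (log2 fold change -2.26, SE 0.34, edgeR adjusted p = 0.00787). This second call was kept in all 20 alternative settings (adjusted p at most 0.0374), and the first in 18 of 20, being lost without WT Ly6Clo replicate 2 (edgeR adjusted p = 0.0508) or 3 (edgeR adjusted p = 0.0595).

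Ccl9 was 1 called member of 8 tested in each of these comparisons. Of all 18341 genes, 3.51% were called in WT Ly6Clo against WT Ly6Chi (1.62% lower) and 4.52% in KO Ly6Clo against WT Ly6Chi (2.46% lower), so a single call in 8 is above these shares but rests on 1 gene. The median log2 fold change of the 8 was -0.58 in WT Ly6Clo against WT Ly6Chi, where that of all genes was -0.00, and -0.83 in KO Ly6Clo against WT Ly6Chi, where that of all genes was 0.04. The libraries of the compared groups did not overlap for 4 members in WT Ly6Clo against WT Ly6Chi (Ccl2, Ccl6, Ccl9 and Cxcl10), beside 28.3% of all genes tested. They did not overlap for 3 in KO Ly6Clo against WT Ly6Chi (Ccl2, Ccl9 and Cxcl10), beside 22.9% of all genes.

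**Figure D3:**
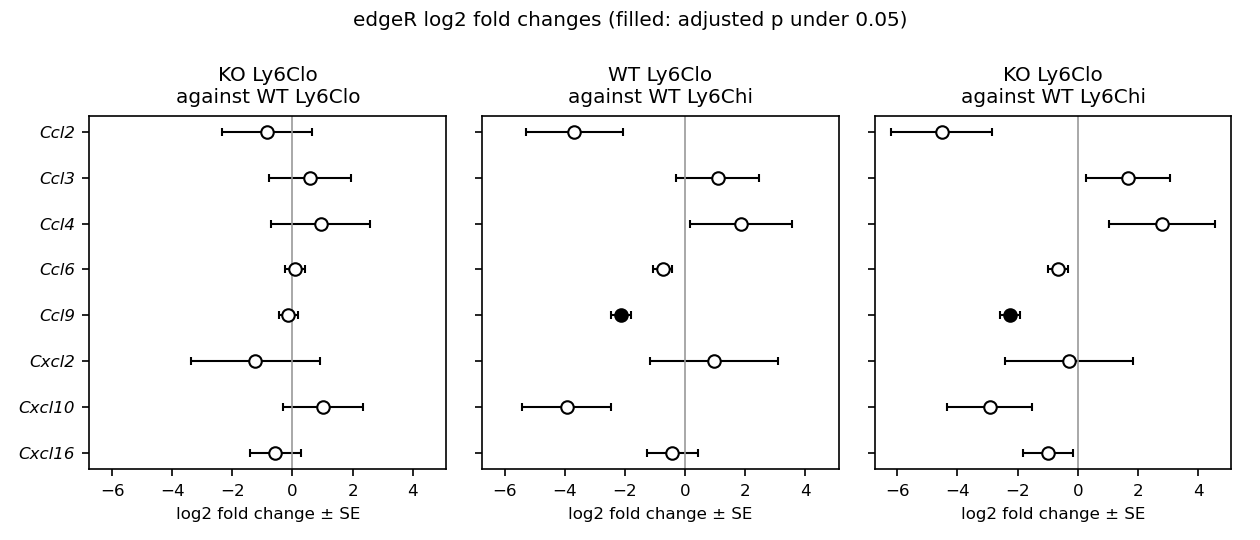
Points give the edgeR log2 fold change of the 8 tested chemokine ligands with its SE, in 3 panels (KO Ly6Clo over WT Ly6Clo, WT Ly6Clo over WT Ly6Chi, and KO Ly6Clo over WT Ly6Chi), and filled points have an adjusted p under 0.05. Ccl9 is the filled point in both comparisons with WT Ly6Chi, at -2.12 and -2.26, and the bars of Ccl2, Ccl3, Ccl4, Cxcl2 and Cxcl10 are the wide ones.

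Ccl6, the neighbour of Ccl9 and another CCR1 ligand of rodents, had smaller fold changes between the subsets. It was at 1459, 541 and 661 CPM in KO Ly6Clo, at 907, 796 and 805 CPM in WT Ly6Clo and at 1583, 1297 and 1336 CPM in WT Ly6Chi. All 3 WT Ly6Clo libraries were below all WT Ly6Chi libraries, whereas KO Ly6Clo 1 lay among the WT Ly6Chi libraries and the other 2 KO libraries below every WT library. The log2 fold change was -0.75 (SE 0.33, edgeR adjusted p = 0.271) in WT Ly6Clo against WT Ly6Chi and -0.66 (SE 0.33, edgeR adjusted p = 0.359) in KO Ly6Clo against WT Ly6Chi. KO Ly6Clo replicate 1 decided the call: without it, edgeR gave -1.24 with an adjusted p of 0.00765 against WT Ly6Chi, and -0.75 with an adjusted p of 0.0302 between the WT subsets. Ccl6 to Ccl9 was a ratio of 12.7, 10.5 and 9.44 in TPM in KO Ly6Clo, 8.09, 12.6 and 9.47 in WT Ly6Clo and 3.31, 4.08 and 3.97 in WT Ly6Chi, so the ratio was lower in every WT Ly6Chi library than in any Ly6Clo library. A noncoding gene that overlaps Ccl6, E230016K23Rik, was at most 16.4 CPM, and whether counting used strand is not stated.

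Ccr1, the receptor of Ccl6 and Ccl9 and also of Ccl3, was itself at 0.0310, 3.12 and 1.70 CPM in KO Ly6Clo, at 0.0367, 2.69 and 1.64 CPM in WT Ly6Clo and at 65.0, 20.4 and 18.6 CPM in WT Ly6Chi. It was named after its values were seen. The WT Ly6Chi libraries lay above all others, but the adjusted p was 0.154 in WT Ly6Clo against WT Ly6Chi and 0.165 in KO Ly6Clo against WT Ly6Chi by edgeR.

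Ccl2 and Ccl7 encode the ligands of CCR2, the receptor that draws Ly6Chi monocytes out of bone marrow. Ccl2 was at 0, 0.491 and 0.772 CPM in KO Ly6Clo, at 0, 0.643 and 1.64 CPM in WT Ly6Clo and at 5.78, 13.5 and 10.0 CPM in WT Ly6Chi. These levels rest on 0, 70 and 44 counts in KO Ly6Clo, 0, 97 and 86 in WT Ly6Clo and 323, 646 and 491 in WT Ly6Chi. The WT Ly6Chi libraries lay above every Ly6Clo library, and the edgeR adjusted p was 0.272 in WT Ly6Clo against WT Ly6Chi (log2 fold change -3.68, SE 1.62) and 0.208 in KO Ly6Clo against WT Ly6Chi (-4.53, SE 1.69). DESeq2 called Ccl2 in the second (adjusted p = 0.0181), and edgeR did so there without the 3 libraries numbered 1 (adjusted p = 0.0296). Ccl7 had 0 counts in all 9 libraries. That allows at most 0.0173 to 0.0623 CPM depending on depth (3 counts, without TMM scaling, counting error only).

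Ccr2 itself fell in both Ly6Clo groups. It was at 187, 136 and 97.9 CPM in KO Ly6Clo, at 100, 83.8 and 93.7 CPM in WT Ly6Clo and at 1512, 990 and 992 CPM in WT Ly6Chi. The log2 fold change was -3.65 (SE 0.29, edgeR adjusted p = 0.000745) in WT Ly6Clo against WT Ly6Chi and -3.05 (SE 0.28, edgeR adjusted p = 0.000769) in KO Ly6Clo against WT Ly6Chi. Ccr2 and Ccl2 were thus both at their highest in the WT Ly6Chi libraries. Ccr2 was the 1 called gene among 19 tested of 23 chemokine receptors, in either comparison, and none was called in KO Ly6Clo against WT Ly6Clo.

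Cxcl10 encodes an interferon-induced ligand of CXCR3 that draws activated T cells. It was at 0, 4.28 and 2.44 CPM in KO Ly6Clo, at 0.367, 0.510 and 2.48 CPM in WT Ly6Clo and at 11.1, 21.3 and 18.9 CPM in WT Ly6Chi. Every WT Ly6Chi library was above every Ly6Clo library, where KO Ly6Clo 1 had no count. The log2 fold change was -3.94 (SE 1.48, edgeR adjusted p = 0.202) in WT Ly6Clo against WT Ly6Chi and -2.93 (SE 1.41, edgeR adjusted p = 0.343) in KO Ly6Clo against WT Ly6Chi, so neither passed. DESeq2 called Cxcl10 in the first (adjusted p = 0.0163), as it called Ccl9. DESeq2 called 2 members in each comparison with WT Ly6Chi, where it called 11.5% of the genes it tested between the WT subsets and 11.2% for KO Ly6Clo over WT Ly6Chi. Art3, which overlaps Cxcl10, was at most 2.33 CPM.

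Several interferon-stimulated genes fell in both Ly6Clo groups. Of 12 such genes 11 were tested, and 5 fell in WT Ly6Clo against WT Ly6Chi (median of the 11, -2.40) and 6 in KO Ly6Clo against WT Ly6Chi (median -2.42), with none higher. Usp18, which restrains interferon signalling, was at 11.6, 21.5 and 11.9 CPM in KO Ly6Clo, at 21.2, 20.7 and 29.2 CPM in WT Ly6Clo and at 94.4, 146 and 113 CPM in WT Ly6Chi. It fell by 2.31 on the log2 scale in WT Ly6Clo against WT Ly6Chi (SE 0.30, edgeR adjusted p = 0.00544) and by 2.97 in KO Ly6Clo against WT Ly6Chi (SE 0.31, edgeR adjusted p = 0.00124). Ifit2, which blocks translation of foreign RNA, fell in both comparisons as well (-3.01 and -2.42, edgeR adjusted p = 0.0133 and 0.0235). So did Isg15, a ubiquitin-like modifier (-2.71 and -2.85, edgeR adjusted p = 0.0243 and 0.0165), while Cmpk2, a mitochondrial nucleotide kinase, fell in WT Ly6Clo against WT Ly6Chi (-1.53, edgeR adjusted p = 0.0173) and had an edgeR adjusted p of 0.0705 in the other comparison. None of the 11 was called in KO Ly6Clo against WT Ly6Clo. Irf7, a transcription factor of the interferon response, had a log2 fold change of -0.18 there (edgeR adjusted p = 1.0). Both comparisons use the same WT Ly6Chi libraries.

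Ccl3 and Ccl4 encode MIP-1 alpha and MIP-1 beta, inflammatory chemokines that are also made in quantity by NK cells and T cells. Ccl3 was at 1.37, 40.3 and 79.5 CPM in KO Ly6Clo, at 1.5, 43.0 and 35.7 CPM in WT Ly6Clo and at 1.88, 18.2 and 17.7 CPM in WT Ly6Chi. Ccl4 was at 0.140, 71.7 and 89.3 CPM in KO Ly6Clo, at 1.28, 42.9 and 39.6 CPM in WT Ly6Clo and at 0.644, 12.3 and 9.96 CPM in WT Ly6Chi. In each group the library numbered 1 was at least 9.42-fold (Ccl3) or 15.5-fold (Ccl4) below the other 2, and those libraries of the 3 groups were alike to within 1 CPM for Ccl3.

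With all libraries, neither gene was called. The log2 fold change of Ccl4 was 1.87 (SE 1.70, edgeR adjusted p = 0.628) in WT Ly6Clo against WT Ly6Chi and 2.81 (SE 1.76, edgeR adjusted p = 0.498) in KO Ly6Clo against WT Ly6Chi, and that of Ccl3 was 1.09 and 1.68 (edgeR adjusted p = 0.744 and 0.636). Without the 3 libraries numbered 1, an alternative chosen after seeing the data, Ccl4 passed in both, at 1.89 (SE 0.22, edgeR adjusted p = 0.0201) and 2.86 (SE 0.23, edgeR adjusted p = 0.00532). Ccl3 then had 1.13 (SE 0.35, edgeR adjusted p = 0.182) and 1.75 (SE 0.36, edgeR adjusted p = 0.0603). In that fit 2 members were called in WT Ly6Clo against WT Ly6Chi (Ccl4 and Ccl9), beside 2.49% of all genes, and 4 in KO Ly6Clo against WT Ly6Chi (Ccl2, Ccl4, Ccl6 and Ccl9), beside 3.80%. Ccl4 to Ccl3 was a ratio of 2.07 and 1.30 in TPM in KO Ly6Clo 2 and 3, 1.16 and 1.29 in WT Ly6Clo 2 and 3, and 0.785 and 0.654 in WT Ly6Chi 2 and 3.

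Markers of some other cells also differed with library number, and their part in the levels of Ccl3 and Ccl4 was not tested. The 6 NK cell markers summed to 9.87, 289 and 67.8 CPM in KO Ly6Clo, to 50.2, 222 and 155 CPM in WT Ly6Clo and to 24.8, 88.7 and 65.6 CPM in WT Ly6Chi, with 2 of 6 at 0 in KO Ly6Clo 1 and none in the other libraries. The 7 basophil and mast cell markers summed to 5.70, 38.3 and 62.8 CPM in KO Ly6Clo, to 1.28, 28.1 and 69.5 CPM in WT Ly6Clo and to 0.107, 1.56 and 2.43 CPM in WT Ly6Chi. Like Ccl4, both sums were lowest in library 1 of each group, and the basophil sum was higher in libraries 2 and 3 of either Ly6Clo group than in WT Ly6Chi. Within KO Ly6Clo the NK sum was highest in library 2, and Ccl3 and Ccl4 in library 3. Mcpt8, a basophil protease, was at 0, 4.52 and 9.16 CPM in KO Ly6Clo, at 0, 2.03 and 6.61 CPM in WT Ly6Clo and at 0.0358, 0 and 0 CPM in WT Ly6Chi. Erythroid markers also differed with library, from 1.78 CPM in KO Ly6Clo 1 to 7574 CPM in KO Ly6Clo 2. Other lists were not lowest in library 1 of every group. In WT Ly6Clo, B cell markers summed to 570, 703 and 488 CPM and red pulp macrophage markers to 304, 286 and 185 CPM. Platelet markers summed to 83.1, 72.2 and 50.7 CPM in KO Ly6Clo.

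Cxcl2 encodes MIP-2, a ligand of CXCR2 that draws neutrophils. It was at 0.0310, 27.9 and 40.5 CPM in KO Ly6Clo, at 0, 128 and 34.3 CPM in WT Ly6Clo and at 0.322, 44.3 and 39.2 CPM in WT Ly6Chi. The library numbered 1 of every group had 18 counts or fewer, while the 6 others had 1796 or more. Libraries 2 and 3 of the 3 groups overlapped, apart from the high WT Ly6Clo 2. The log2 fold change was -1.24 (SE 2.15) between the genotypes, 0.95 (SE 2.13) between the WT subsets and -0.29 (SE 2.12) for KO Ly6Clo over WT Ly6Chi, none called by edgeR (adjusted p = 1.0, 0.868 and 0.974). WT Ly6Clo 2 set 2 of these directions: without it they were 0.44 in KO Ly6Clo against WT Ly6Clo and -0.71 in WT Ly6Clo against WT Ly6Chi.

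The same library numbers split the immediate early genes, transcription factors and phosphatases whose RNA appears within minutes of a stimulus. Ccl3, Ccl4 and Cxcl2 were at least 5-fold lower in library 1 than in either other library of all 3 groups, as were 147 of the 18341 genes tested (0.801%) and 5 of 10 immediate early genes. Library 1 was merely the lowest of every group for 6 members (those 3 with Ccl2, Cxcl10 and Cxcl16), for 8 of the 10 immediate early genes and for 2011 of all genes tested (11%). Dusp1, a MAP kinase phosphatase, was at 197, 3891 and 4564 CPM in KO Ly6Clo, at 581, 7320 and 5474 CPM in WT Ly6Clo and at 227, 5164 and 5341 CPM in WT Ly6Chi. Junb, an AP-1 subunit, had its library 1 lowest in every group as well, at 692 CPM in KO Ly6Clo, at 611 CPM in WT Ly6Clo and at 566 CPM in WT Ly6Chi. None of the 10 was called in any comparison by edgeR. The labels do not say how the libraries numbered 1 differed in handling, and what splits them was not tested.

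**Figure D4:**
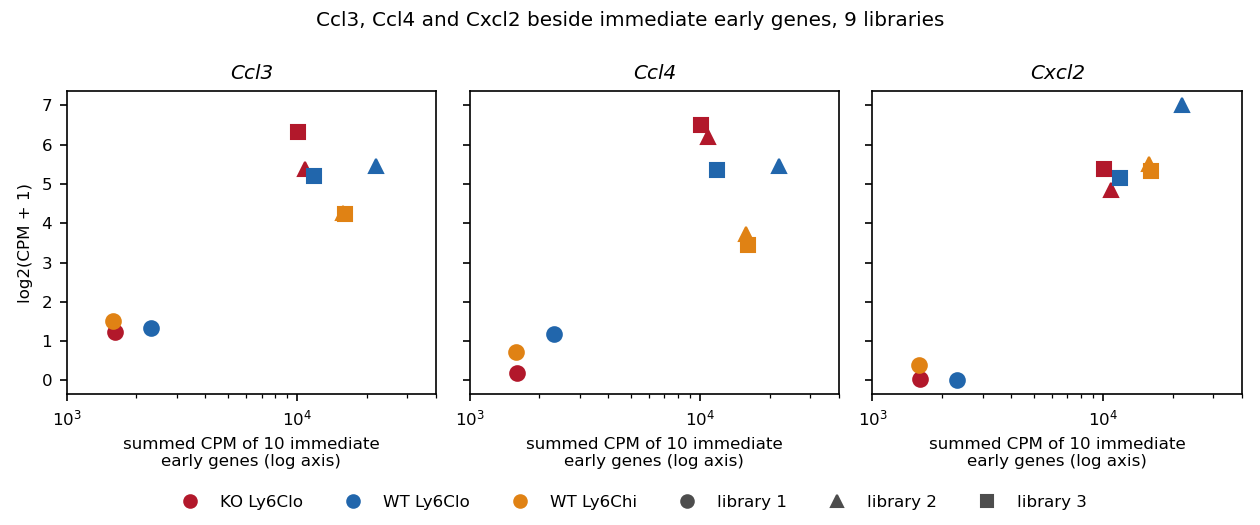
Ccl3, Ccl4 and Cxcl2 as log2(CPM + 1) are plotted against the summed CPM of 10 immediate early genes on a log axis, with colours for KO Ly6Clo, WT Ly6Clo and WT Ly6Chi and shapes for libraries 1, 2 and 3. The 3 libraries numbered 1 sit at 1584 to 2323 CPM on the horizontal axis with the lowest ligand levels, and the other 6 sit at 10107 to 22018 CPM.

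Ccl6 and Ccl9 went the other way, with library 1 the highest of every group for both. For Ccl9 that was 195 CPM against at most 119 CPM in the other KO Ly6Clo libraries, 190 CPM against at most 144 CPM in WT Ly6Clo and 811 CPM against at most 571 CPM in WT Ly6Chi. Without the libraries numbered 1 the log2 fold change of Ccl9 was -2.14 in WT Ly6Clo against WT Ly6Chi and -2.42 in KO Ly6Clo against WT Ly6Chi (edgeR adjusted p = 0.0153 and 0.00775), as large as with them.

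Of 12 genes of the NF-kB response, which encode feedback inhibitors, NF-kB subunits, RNA decay factors and the cytokine Tnf, 2 rose in WT Ly6Clo against WT Ly6Chi and 2 in KO Ly6Clo against WT Ly6Chi, and none fell. Their sum repeated the split by library, at 1910, 5914 and 4913 CPM in KO Ly6Clo, at 2554, 9465 and 4929 CPM in WT Ly6Clo and at 1274, 4392 and 4713 CPM in WT Ly6Chi. Nfkb1, an NF-kB subunit, was at 457, 444 and 422 CPM in KO Ly6Clo, at 569, 475 and 433 CPM in WT Ly6Clo and at 163, 271 and 270 CPM in WT Ly6Chi. It rose in WT Ly6Clo against WT Ly6Chi (1.07, SE 0.21, edgeR adjusted p = 0.0306) and in KO Ly6Clo against WT Ly6Chi (0.91, SE 0.21, edgeR adjusted p = 0.0479). Tnf, the inflammatory cytokine, rose in WT Ly6Clo against WT Ly6Chi (3.19, SE 0.62, edgeR adjusted p = 0.0274) and had an adjusted p of 0.115 in KO Ly6Clo against WT Ly6Chi. Zfp36l1, a factor that destabilises RNA with AU-rich elements, rose in KO Ly6Clo against WT Ly6Chi (3.89, SE 0.80, edgeR adjusted p = 0.0282). None of the 12 was called in KO Ly6Clo against WT Ly6Clo, where Zfp36 and Nfkbia, the most abundant, had log2 fold changes of -0.48 and -0.67.

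Cxcl16 encodes a chemokine that is made as a membrane protein, shed by ADAM10, and bound by CXCR6. It was low, at 0.652, 7.49 and 2.11 CPM in KO Ly6Clo, at 2.38, 8.27 and 4.56 CPM in WT Ly6Clo and at 3.27, 7.24 and 9.86 CPM in WT Ly6Chi. All 3 groups overlapped, and Zmynd15, which overlaps Cxcl16, was at most 1.46 CPM. No comparison called it (edgeR adjusted p = 1.0 between genotypes, 0.850 between the WT subsets and 0.647 for KO Ly6Clo over WT Ly6Chi). The 7 T cell markers moved with it, at 27.3, 147 and 95.4 CPM in sum in KO Ly6Clo, at 57.5, 151 and 102 CPM in WT Ly6Clo and at 88.4, 125 and 141 CPM in WT Ly6Chi, and their part was not tested. Adam10 was at 209, 169 and 163 CPM in KO Ly6Clo, at 162, 197 and 168 CPM in WT Ly6Clo and at 184, 180 and 222 CPM in WT Ly6Chi.

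Loss of the Cebpa element changed no member past the test within Ly6Clo monocytes. In KO Ly6Clo against WT Ly6Clo 0 of 8 members were called by edgeR and none had an unadjusted p under 0.05, where 13 of 18341 genes (0.0709%) were called and 6.16% had an unadjusted p under 0.05, and DESeq2 called no member either. No member had groups that did not overlap, beside 10.9% of all genes. The precision differed between members. For Ccl6 the log2 fold change was 0.09 with an SE of 0.33 and for Ccl9 -0.14 with an SE of 0.32, whereas Ccl2 (-0.85, SE 1.49), Ccl3 (0.59, SE 1.36), Ccl4 (0.94, SE 1.65), Cxcl10 (1.01, SE 1.33) and Cxcl16 (-0.57, SE 0.84) were measured far less closely. For Ccl2, Ccl3, Ccl4, Cxcl2 and Cxcl10 the SE exceeded 1 on the log2 scale, so a 2-fold difference was not detectable in this fit. With the replicate number as a block, the SE was 0.47 for Ccl3, 0.82 for Ccl4 and 0.83 for Cxcl2. It stayed above 1 for Ccl2 (1.21) and Cxcl10 (1.39). Without the libraries numbered 1, the SEs of these genes ran from 0.22 (Ccl4) to 0.74 (Cxcl10). No member was called in either fit. Without the libraries numbered 1 the unadjusted p was 0.00429 for Ccl4 (log2 fold change 0.97) and 0.0291 for Ccl6 (-0.41), and the edgeR adjusted p was 0.327 and 0.543.

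The other chemokine ligands summed to 18.7, 113 and 48.5 CPM in KO Ly6Clo, to 31.3, 72.3 and 70.8 CPM in WT Ly6Clo and to 24.6, 41.8 and 35.1 CPM in WT Ly6Chi. The 9 members summed to between 781 and 2418 CPM. Of 29 further ligand genes 11 were tested and none was called in any comparison, at a median log2 fold change of 0.06 between the genotypes, -0.08 between the WT subsets and -0.23 for KO Ly6Clo over WT Ly6Chi. Ccl5, the T and NK cell chemokine RANTES, was the most abundant at 148 TPM on average in KO Ly6Clo, 132 TPM in WT Ly6Clo and 50.9 TPM in WT Ly6Chi. It was at 3.12, 93.7 and 34.0 CPM in KO Ly6Clo, at 9.48, 59.7 and 56.3 CPM in WT Ly6Clo and at 6.67, 25.9 and 15.7 CPM in WT Ly6Chi, lowest in library 1 of each group, as was the sum of the NK cell markers. Xcl1, also an NK and T cell chemokine, averaged 17.6 TPM in KO Ly6Clo, 7.27 TPM in WT Ly6Clo and 1.26 TPM in WT Ly6Chi, and the platelet chemokines Ppbp and Pf4 averaged under 7 TPM in every group.

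Among receptors, Cx3cr1, the fractalkine receptor that marks Ly6Clo cells, averaged 281 TPM in KO Ly6Clo, 350 TPM in WT Ly6Clo and 239 TPM in WT Ly6Chi and was not called (edgeR adjusted p = 0.483 in WT Ly6Clo against WT Ly6Chi). Cxcr4, a homing receptor, averaged 249 TPM in KO Ly6Clo, 242 TPM in WT Ly6Clo and 113 TPM in WT Ly6Chi, and Ccrl2, which binds chemerin without signalling, 170 TPM in KO Ly6Clo, 217 TPM in WT Ly6Clo and 126 TPM in WT Ly6Chi. Ccrl2 repeated the split by library, at 17.4, 229 and 156 CPM in KO Ly6Clo, at 23.1, 399 and 150 CPM in WT Ly6Clo and at 8.32, 152 and 164 CPM in WT Ly6Chi.

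Among 6 proteases that trim or shed chemokines, Dpp4 and Mmp8 were called. Dpp4, which clips the ends of ligands such as CXCL10, was at 348, 225 and 125 CPM in KO Ly6Clo, at 67.0, 58.0 and 56.7 CPM in WT Ly6Clo and at 59.6, 88.2 and 94.4 CPM in WT Ly6Chi. Every KO library lay above every WT library, and it rose in KO Ly6Clo against WT Ly6Chi (1.53, SE 0.34, edgeR adjusted p = 0.0408) and had a log2 fold change of 1.94 (SE 0.35, edgeR adjusted p = 0.148) in KO Ly6Clo against WT Ly6Clo. Dpp4 is also a marker of conventional dendritic cells. The other 7 markers of that list summed to 52.1, 155 and 49.8 CPM in KO Ly6Clo, to 31.7, 226 and 121 CPM in WT Ly6Clo and to 108, 264 and 243 CPM in WT Ly6Chi. These sums overlapped between the genotypes, and the part of dendritic cells in the Dpp4 levels was not tested. Mmp8, neutrophil collagenase, fell in WT Ly6Clo against WT Ly6Chi, at 0, 1.37 and 0 CPM in WT Ly6Clo and at 344, 87.4 and 121 CPM in WT Ly6Chi (log2 fold change -8.44, SE 1.55, edgeR adjusted p = 0.0219). Neutrophil markers were also highest in WT Ly6Chi, as were Ccl2, Ccl9 and Cxcl10. They summed to 1.89, 12.5 and 33.9 CPM in KO Ly6Clo, to 5.26, 2.52 and 5.84 CPM in WT Ly6Clo and to 284, 801 and 339 CPM in WT Ly6Chi. Within WT Ly6Chi this sum was lowest in library 1, as were Ccl2 and Cxcl10, whereas Mmp8 and Ccl9 were highest there. The part of neutrophils in those levels was not tested. The most abundant proteases of the list, Adam17 and Adam10, had log2 fold changes of 0.02 and 0.04 in KO Ly6Clo against WT Ly6Clo.

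The genes whose levels followed each member most closely over the 9 libraries were found among 9071 tested genes of at least 5 CPM on average, by the root mean square difference of log2(CPM + 1) after centring each gene. Closest to Ccl9 were S100a6, a calcium-binding protein (difference 0.17), and Crip1, a LIM domain protein (0.23), and closest to Ccl6 were Bmyc (0.11) and Fam241a (0.16). S100a6 was at 204, 66.4 and 86.5 CPM in KO Ly6Clo, at 153, 84.6 and 115 CPM in WT Ly6Clo and at 723, 430 and 385 CPM in WT Ly6Chi. Ccl2 and Cxcl10 shared their closest genes, Ptafr, the receptor of platelet-activating factor (0.34 from Ccl2 and 0.55 from Cxcl10), and Oasl1, an interferon-stimulated gene (0.37 and 0.53). Rgs1, a regulator of G protein signalling, was close to both Ccl4 (0.39) and Ccl3 (0.50), with Hcar2, a hydroxycarboxylic acid receptor, closer still to Ccl3 (0.46) and Ccl3 itself second to Ccl4 (0.56). Rgs1 was at 3.06, 138 and 173 CPM in KO Ly6Clo, at 6.07, 105 and 133 CPM in WT Ly6Clo and at 2.11, 47.9 and 37.5 CPM in WT Ly6Chi, the same split by library and subset as Ccl4. Cxcl2 had no close match, its nearest being Dusp1 (0.84) and Osm, which encodes oncostatin M (0.91). The nearest to Cxcl16 were Lef1 (0.26) and Cd3e (0.28), both T cell genes, Cd3e being at 1.77, 9.36 and 5.18 CPM in KO Ly6Clo, at 2.99, 9.09 and 7.71 CPM in WT Ly6Clo and at 6.62, 9.93 and 13.1 CPM in WT Ly6Chi. These are descriptions over 9 libraries that share group and library number, with no test.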

How the data were processed

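RNA-seq of 9 libraries was used, 3 per group, from 10 ng of RNA with 12 to 15 PCR cycles and paired reads of 150 bases, per the labels. The deposited counts are whole reads for each gene, without normalization. CPM, FPKM and TPM were deposited by the authors beside them, per the file headers. The deposited TPM serve to compare genes, the CPM were recomputed with TMM scaling, and the FPKM were not used. The submitters' processing notes name STAR 2.5.1a, featureCounts 1.4.6-p5, Salmon 0.8.2 and GRCm38, without roles. Strand and reads of several genes are not given in the sources used here. Symbols came from GENCODE M21 for 99.53% of 55487 IDs.

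Counts were fitted with edgeR 4.0.16 in R 4.3.3: filterByExpr by group (minimum count 10), TMM, 1 term per group over all 9 libraries, the quasi-likelihood test and Benjamini-Hochberg adjustment over 18341 genes. A gene is called at an adjusted p under 0.05, and SEs come from the F statistic. The common dispersion was 0.448. The script was tested on simulated data. DESeq2 1.42.0, limma 3.58.1 (voom, or log2(TPM + 1)) and other settings are alternatives. No 2 libraries of a group agreed within sampling noise. Upper limits from 0 counts cover counting error only.

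The members and lists were chosen with earlier results of these data known. All members are named. So are ligands and receptors that were called or are among the 4 of highest TPM, up to 3 called genes per other list and comparison (or the 2 of highest level where none was called), and the 2 genes most like each member. 1 gene that this rule names is not reported here. Marker lists are given by summed level.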

Additional observations from a re-analysis of the deposited data

How the results depend on the processing

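The 20 alternatives (18 planned, 2 added after seeing the data) were each run for the 24 member results. Of these values 442 kept direction and side of the threshold, 15 gained a call, 2 lost it and 21 changed sign. Every sign change was in a result with no call, and the cause was not tested. In KO Ly6Clo against WT Ly6Clo the called genes were 54 with no filter, 27 with a filter of 1 CPM in 3 libraries, 277 by DESeq2, 42 by limma on log2(TPM + 1), 0 in a fit of those 2 groups, 0 without the 2 deepest libraries, 2 without the 3 libraries numbered 1, and 2 to 21 when single libraries were left out. At an unadjusted p under 0.05 there were 1130 with all libraries. No alternative called a member there. In WT Ly6Clo against WT Ly6Chi the called genes were 1968 by DESeq2, 1018 by limma on log2(TPM + 1), 217 without the 2 deepest libraries and 239 to 847 when single libraries were left out. They were 828 of 16518 tested in a fit of those 2 groups and 457 without the 3 libraries numbered 1. Members called there were 2 by DESeq2, 3 by limma on log2(TPM + 1) (Ccl2, Ccl9 and Cxcl10), 3 in a fit of those 2 groups (Ccl6, Ccl9 and Cxcl10), 2 without the libraries numbered 1, and 0 to 3 with single libraries left out. For KO Ly6Clo over WT Ly6Chi the called genes were 1950 by DESeq2, 456 without the 2 deepest libraries and 379 to 818 with single libraries left out. They were 698 without the 3 libraries numbered 1, and the number by limma on log2(TPM + 1) is not given here. Members called were 2 by DESeq2, 3 by limma on log2(TPM + 1) (Ccl2, Ccl9 and Cxcl10), 4 without the libraries numbered 1, and 1 to 2 with single libraries left out.

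Sign changes in KO Ly6Clo against WT Ly6Clo were, by limma-voom, Ccl4 at -0.36, Ccl6 at -0.077 and Cxcl10 at -0.037, without the 2 deepest libraries Cxcl2 at 0.26 and Cxcl10 at -0.21, and without the libraries numbered 1 Ccl6 at -0.41. With single libraries left out, the log2 fold changes there ran from -1.57 to 0.33 for Ccl2, -0.36 to 1.14 for Ccl3, 0.36 to 1.51 for Ccl4, -0.49 to 0.33 for Ccl6, -0.53 to 0.076 for Ccl9, -1.96 to 0.44 for Cxcl2, 0.12 (without KO Ly6Clo 2) to 2.34 (without WT Ly6Clo 3) for Cxcl10 and -1.91 to 0.0040 for Cxcl16. In WT Ly6Clo against WT Ly6Chi, Cxcl2 was -0.30 by limma-voom, -0.71 without the 2 deepest libraries and -0.71 to 1.56 with single libraries left out. For KO Ly6Clo over WT Ly6Chi, Cxcl2 was 0.74 with a term for the run of library numbers and -0.98 to 0.29 with single libraries left out.

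Deviations of same-numbered libraries from their group means correlated at 0.005 to 0.277. Libraries numbered 1 correlated with each other at 0.277, 0.213 and 0.198, and with libraries 2 and 3 of other groups at -0.22 to -0.057. The libraries numbered 1 thus shared a difference across groups. Libraries 2 and 3 were not clearly paired by number: KO Ly6Clo 3 correlated best with WT Ly6Clo 2 (0.101). With the replicate block 949 genes were called in WT Ly6Clo against WT Ly6Chi and 977 in KO Ly6Clo over WT Ly6Chi, Ccl9 stayed the 1 called member in each, and Ccl6 was at -0.026 in KO Ly6Clo against WT Ly6Clo. Depth limits genes with 0 counts in a library: Ccl7 in all 9, Ccl2 in KO Ly6Clo 1 and WT Ly6Clo 1, Cxcl2 in WT Ly6Clo 1 and Cxcl10 in KO Ly6Clo 1.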
